A study of Homo sapiens with 11 samples.

Results

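The 10 genes described here encode enzymes of non-essential amino acid synthesis and of the reactions that feed it: ASS1 and ASL (arginine), ASNS (asparagine), GPT2 and GOT1 (alanine and aspartate aminotransferases), PCK2 (mitochondrial phosphoenolpyruvate carboxykinase), ALDH18A1 and PYCR1 (proline), and CBS and CTH (cysteine, through transsulfuration). They were chosen by symbol from a list drawn up with earlier results of these data known, and were selected on their measured differences between PHF19 shRNA and scramble libraries. The values of that contrast are therefore given as a description and support nothing. All 10 genes are listed in both tables, among 14458 genes in the knockdown table and 11062 genes in the overexpression table.

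RNA-seq abundances are given for 11 libraries. All were made from ARP1, a human myeloma cell line labelled as IgA kappa. The groups were ARP1 cells with the empty PCDH lentiviral vector (n = 3), ARP1 cells with the same vector carrying the PHF19 open reading frame, sorted for overexpression (n = 2), scramble control cells (n = 3) and cells with an shRNA against PHF19 (n = 3). PHF19 is an accessory subunit of the Polycomb repressive complex PRC2. How the shRNA was delivered, whether its libraries carry the same hairpin, and whether empty vector cells were sorted are not stated. Nothing states that replicates came from separate cultures, so p-values measure the spread between these libraries, which may be technical. The tables carry no counts, so the depth is unknown.

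Several of these enzymes, ASNS among them, are activated by ATF4, a transcription factor made during the integrated stress response. When amino acids run short or protein folding fails, kinases phosphorylate the initiation factor eIF2, translation of most mRNAs falls, and ATF4 protein is made. ATF4 binds DNA with a C/EBP partner at composite elements and raises transcription of amino acid enzymes and transporters. ASS1 joins citrulline and aspartate, ASL releases arginine and fumarate, and cells low in ASS1 depend on external arginine. ASNS makes asparagine from aspartate, and its loss underlies the use of asparaginase in blood cancers. PCK2 turns oxaloacetate into phosphoenolpyruvate, so it links the citric acid cycle to serine synthesis.

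The sequences before the start of these genes were examined for 2 motifs, because the members differ in the size of their differences: TGATGNAA, a core shared by C/EBP-ATF composite elements, and CACGTG, the E-box bound by MYC and other basic helix-loop-helix factors. Both strands were searched in the 250 bases before each RefSeq gene start (GRCh38.p14), which covered 12 starts of 8 members. GPT2 and PYCR1 were not matched. TGATGNAA was found for ASNS and GOT1, 2 of 8 members, against 3.89% of 27305 genes (3.14% of 35116 windows). CACGTG was found for ASS1 and ALDH18A1, 2 of 8 members, against 7.73% of genes (6.34% of windows). The motifs do not overlap each other in these windows. All 250 bases of the GOT1 window, 134 of the ASNS window and 32 of the second ASS1 window also overlap exons annotated for other transcripts, so these stretches can be transcribed. Capitals mark the match in each 30-base stretch, written 5′ to 3′ on the gene's strand.
ASNS, chr7:97872458-97872487, minus strand, 68 bases before the start: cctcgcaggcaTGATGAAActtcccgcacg
GOT1, chr10:99430804-99430833, minus strand, 198 bases before the start, with the motif on the opposite strand: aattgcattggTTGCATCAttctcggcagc
ASS1, second start, chr9:130444878-130444907, plus strand, 71 bases before the start: gcgcgtccccgcCACGTGtccccggtcacc
ALDH18A1, chr10:95656830-95656859, minus strand, 136 bases before the start: gggctggcccgcCACGTGgagcgctggctt
The whole 250 bases are shown for the first start of ASS1, the member with the widest difference after knockdown, in which neither motif was found, and for ALDH18A1, the member whose groups overlapped.
ASS1, first start, chr9:130444457-130444706, plus strand: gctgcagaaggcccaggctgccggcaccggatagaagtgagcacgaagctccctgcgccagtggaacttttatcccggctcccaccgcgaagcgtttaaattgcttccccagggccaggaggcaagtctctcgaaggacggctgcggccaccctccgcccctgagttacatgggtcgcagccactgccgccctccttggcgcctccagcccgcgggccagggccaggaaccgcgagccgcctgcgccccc
ALDH18A1, chr10:95656712-95656961, minus strand: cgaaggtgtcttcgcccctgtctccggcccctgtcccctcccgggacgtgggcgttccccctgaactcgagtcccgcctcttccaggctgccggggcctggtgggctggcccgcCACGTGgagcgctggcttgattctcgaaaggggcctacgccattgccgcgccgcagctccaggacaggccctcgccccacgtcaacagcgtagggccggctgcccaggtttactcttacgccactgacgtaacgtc
A match is a description of letters, and none of these windows was assayed for binding here.

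PHF19 itself was 113, 152 and 123 in scramble replicates 1 to 3 and 75.2, 103 and 108 in shRNA replicates 1 to 3, a difference that did not pass over all genes (-0.44 on the log2 scale, limma adjusted p = 0.147, and 0.0445 with the replicate number as a block). Its level was 111, 119 and 115 in empty vector replicates 3 to 5 and 227 and 213 with the PHF19 vector, a rise that passed (0.93, limma adjusted p = 0.0438). The groups lay apart, but the call was kept in 1 of the 5 fits that leave out 1 library, that without empty vector replicate 5. It was also lost with plain limma variances, quantile or median-of-ratios scaling, a filter at 5, a pseudocount of 0.1 and zeros left out (limma adjusted p 0.0349 to 0.264 over all alternatives). Plasma cell markers were present in both tables (10 of 11 listed symbols, of which JCHAIN and IGJ name 1 gene). They had sums of 1832 to 2049 in scramble and 1461 to 1878 in shRNA libraries, and 2554 to 3559 in empty vector and 4386 and 11554 in overexpression libraries. IGJ alone was 1686 to 1939 in empty vector and 9837 and 2623 in overexpression libraries. MZB1 and TNFRSF17 were listed at 0 in empty vector replicates 3 and 4, which is not read as a low level. With PHF19 overexpressed 0 of 10 of these markers were called by limma (0.914% of all genes were). Markers of B cells, T cells and monocytes were at most 4.12 in the knockdown table, with MS4A1 and CD14 below 1 in each library. Epithelial and fibroblast markers (3 of 8 listed) summed to 10.1 to 15 in scramble and 5.67 to 7.22 in shRNA libraries, and KRT18 fell from 11.1 ± 1.84 to 5.08 ± 0.382 (SD, n = 3 each; limma adjusted p = 0.0137). In the overexpression table the monocyte genes LYZ and S100A8 summed to 30.4 in overexpression replicate 2 and to less than 1 in the other libraries. The part of these markers in the results was not tested. In bulk RNA, fewer cells of a type and less RNA per cell cannot be told apart.

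In scramble cells the 10 enzymes spanned a wide range of levels per unit length. CBS (95.3 to 140) and PYCR1 (105 to 123) were the most abundant, and their libraries overlapped. ASNS (32.5 to 69.9), ALDH18A1 (32.9 to 37.5) and GOT1 (34.7 to 35.6) followed with overlapping ranges, and then ASL, PCK2, GPT2 and ASS1, also overlapping. CTH had the lowest median, at 2.99 to 7.54, and its highest library overlapped the lowest of ASS1. In shRNA libraries ASS1 stood at 169 to 179, within the range of ASNS (125 to 209), while ASL, ALDH18A1 and CTH were the lowest. After knockdown 9 of the 10 enzymes were higher in every shRNA library than in any scramble library (18.9% of the 10900 genes tested were higher in this way, 13% lower and 32% either), and ALDH18A1 was the exception. Over all genes 7 of 10 were called higher and 0 lower by limma, where 4.24% of genes tested were called higher and 1.28% lower. Nothing is read from these counts, since the same contrast chose the genes. With the replicate block, which called more of all genes tested, 8 were called.

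ASS1, which commits citrulline to arginine, had the widest difference. Its abundance was 6.62, 23.5 and 21.1 in scramble replicates 1 to 3 and 169, 172 and 179 in shRNA replicates 1 to 3. The scramble libraries were far apart and the shRNA libraries close together, with a ratio of means of 10.2 and a difference of 3.44 (SE 0.43) in mean log2(abundance + 1), the scale of all differences below. ASS1 has processed pseudogenes that can share its reads, so its level is uncertain to that extent. ASL, which cleaves the product of ASS1, was 22.1, 25.5 and 21.8 in scramble and 26.8, 27.4 and 31.1 in shRNA libraries. Its groups did not overlap, but the difference was 0.29 (SE 0.12). The ratio of ASS1 to ASL, the consecutive steps, was 0.299, 0.920 and 0.968 in scramble libraries and 6.32, 6.28 and 5.75 in shRNA libraries, so ASS1 was below ASL in each scramble library and above it in each shRNA library.

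ASNS was 32.5, 69.9 and 62.0 in scramble and 125, 209 and 190 in shRNA libraries, a difference of 1.69 (SE 0.29). The lowest shRNA library lay above the highest scramble library. GPT2, the mitochondrial enzyme that exchanges glutamate and pyruvate for 2-oxoglutarate and alanine, was 14.4, 22.9 and 26.7 in scramble and 60.3, 84.8 and 91.5 in shRNA libraries (1.86, SE 0.23). Its cytosolic relative GPT was at most 0.32 in any library of this table and was not tested.

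GOT1, the cytosolic aspartate aminotransferase of the malate-aspartate shuttle, was 34.7, 35.6 and 34.9 in scramble and 41.7, 58.4 and 55.6 in shRNA libraries (0.54, SE 0.14). The scramble libraries were nearly level and shRNA replicate 1 lay nearest to them. GOT2, the mitochondrial enzyme of the same shuttle and not among the 10, lay the other way: it was 113, 101 and 105 in scramble and 76.9, 86.8 and 88.4 in shRNA libraries (-0.34, SE 0.12, limma adjusted p = 0.118). It did not pass over all genes, although its groups did not overlap. The ratio of GOT1 to GOT2 was 0.306 to 0.353 in scramble and 0.542 to 0.672 in shRNA libraries.

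PCK2 was 13.1, 25.1 and 30.7 in scramble and 81.4, 115 and 132 in shRNA libraries (2.26, SE 0.29), second to ASS1 in size among the 10. The cytosolic form PCK1 was not analysed here.

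The proline enzymes differed from each other. ALDH18A1 makes the pyrroline-5-carboxylate precursor from glutamate, and PYCR1 reduces it to proline in mitochondria. ALDH18A1 was 37.5, 32.9 and 37.5 in scramble and 26.6, 32.2 and 34.8 in shRNA libraries (-0.20, SE 0.13), and its groups overlapped. PYCR1 was 105, 123 and 112 in scramble and 147, 198 and 207 in shRNA libraries (0.68, SE 0.15). The ratio of PYCR1 to ALDH18A1 was 2.80 to 3.74 in scramble and 5.54 to 6.13 in shRNA libraries. PYCRL, a cytosolic relative of PYCR1 and not among the 10, had means of 13.6 ± 0.361 and 10.9 ± 1.84 (SD, n = 3 each), the lower with the shRNA (-0.31, limma adjusted p = 0.226).

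Both transsulfuration enzymes were higher in shRNA libraries. CBS condenses homocysteine with serine, and CTH cleaves the resulting cystathionine to cysteine. CBS was 95.3, 122 and 140 in scramble and 195, 233 and 254 in shRNA libraries (0.93, SE 0.17). CTH was 2.99, 5.74 and 7.54 in scramble and 14.8, 30.6 and 30.2 in shRNA libraries (2.03, SE 0.33). The excess of CBS over CTH was thus narrower, at 18.6 to 31.9 in scramble and 7.62 to 13.2 in shRNA libraries. Recent human annotation holds CBSL, a near-identical copy of CBS, and whether the authors' annotation split reads between them is not stated.

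**Figure D1:**
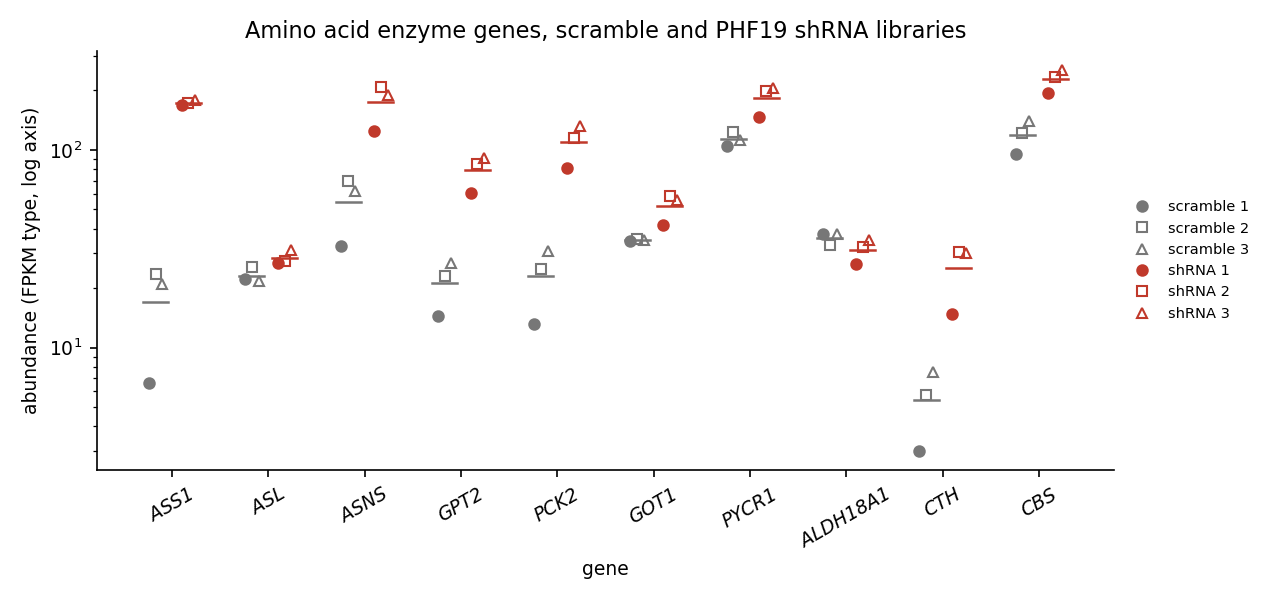
Abundance of the 10 enzymes (FPKM type, log axis) in each scramble library (grey) and shRNA library (red), with bars at the arithmetic mean of each group. ASS1 goes from 6.62 to 23.5 in scramble to 169 to 179 in shRNA libraries, while ALDH18A1 is the gene whose groups overlap.

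The count of 7 called enzymes was 4 without scramble replicate 1, 4 without scramble replicate 2, 3 without shRNA replicate 2 and 2 without shRNA replicate 3, and it was 6 without scramble replicate 3 and 7 without shRNA replicate 1. The number of all genes called changed between these fits too, as given below, so these counts are not a trait of the enzymes alone. GPT2 and PCK2 were called without each of the 6 libraries in turn. Differences taken between libraries of equal number were 2.82 to 4.48 for ASS1, 2.07 to 2.55 for PCK2, 1.87 to 2.23 for CTH, 1.74 to 1.996 for GPT2 and 1.57 to 1.92 for ASNS. They were 0.85 to 1.03 for CBS, 0.48 to 0.88 for PYCR1, 0.26 to 0.70 for GOT1 and 0.097 to 0.49 for ASL, all above 0, and -0.48 to -0.028 for ALDH18A1.

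The libraries of 1 group differed widely for several of these genes. These spans come from the same libraries whose group difference chose the genes, so they are a description and support nothing. Among scramble libraries the span from lowest to highest was 1.68 for ASS1, 1.17 for PCK2, 1.10 for CTH, 1.08 for ASNS and 0.85 for GPT2, against a median of 0.32 over all genes tested. A span as wide was seen for 0.266%, 0.991%, 1.29%, 1.39% and 3.61% of genes tested, in the same order. Scramble replicate 1 held the lowest value for 8 of the 10 enzymes, where it held the lowest value for 49.1% of all genes tested. In shRNA libraries replicate 1 was the lowest for 10 of 10 enzymes, against 50.9% of all genes. In shRNA libraries ASS1 and ASL had narrow spans, of 0.077 and 0.21, and 95.1% and 72.6% of genes had a span as wide. The other enzymes spanned more than the median gene there (0.324), from 0.378 for ALDH18A1 to 1.003 for CTH. Spans as wide as these were seen for 41.2% and 3.59% of genes. GOT1, ALDH18A1, ASL and PYCR1 spanned 0.036 to 0.23 in scramble libraries, below the median gene. These counts share libraries and are not independent from gene to gene.

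**Figure D2:**
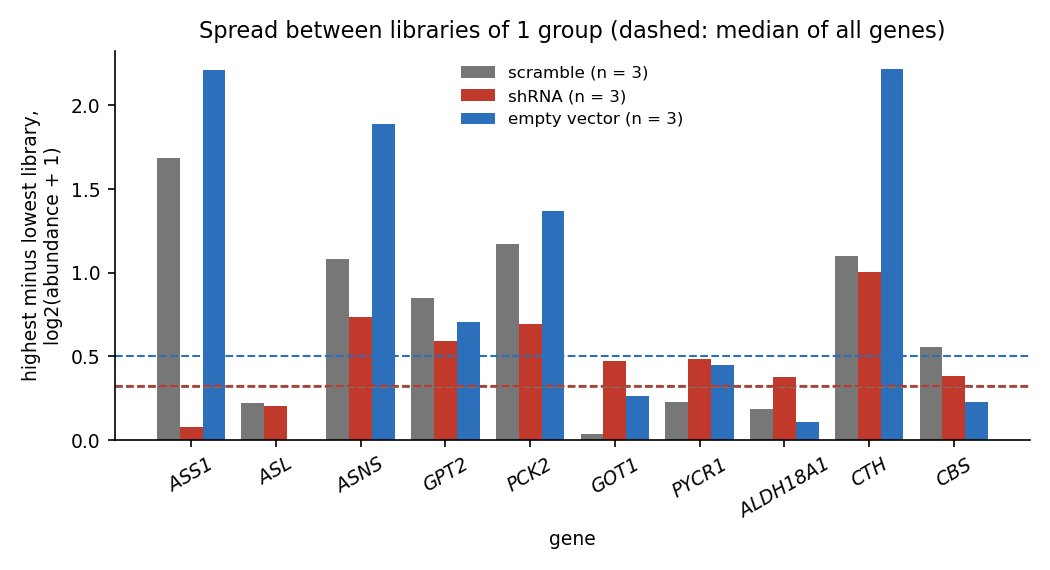
Span between the highest and the lowest library of a group (log2 scale) for each enzyme in scramble, shRNA and empty vector libraries. Dashed lines mark the median span of all genes tested (0.32 in scramble and shRNA, 0.50 in empty vector), and ASL is left out for empty vector because 1 of its values is listed at 0.

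Genes whose profile over the 6 libraries lay nearest to the median profile of the 10 enzymes were named by the root mean square difference of log2 values, each gene centred on its own mean. They were ATF3 (0.083), FAM171B (0.11), SLC7A11 (0.11), PSPH (0.11) and CEBPB (0.12). SLC7A11 is the cystine-glutamate exchanger, PSPH the last enzyme of serine synthesis, and ATF3 and CEBPB are transcription factors. SLC7A11 was 1.77, 3.23 and 4.03 in scramble and 6.20, 10.4 and 8.93 in shRNA libraries, and PSPH 13.9, 22.8 and 23.3 and then 31.9, 48.7 and 48.6. Among the 10, CBS (0.21) and ASNS (0.25) lay nearest to the median profile, and ASS1 (1.13) and ALDH18A1 (0.79) farthest from it. Nearest to ASS1 were INHBE (0.37), CHAC1 (0.44), PIP5KL1 (0.59), DDIT4 (0.68) and ALDH2 (0.69). These likenesses follow largely from the difference between groups and are a description of 6 libraries.

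The overexpression arm asked whether the same enzymes differ when PHF19 is raised. None of the 10 passed limma over all genes tested (0 of 10, where 0.914% of 10279 genes were called, 0.613% higher and 0.302% lower), and limma without trend and robust variances also called 0. At an unadjusted p under 0.05 there were 2 of 10, GOT1 and PCK2, against 11.5% of all genes. Of the 10, 5 were higher in both overexpression libraries than in any empty vector library (23.1% of genes tested were) and 0 were lower (11.1% of genes tested were, and 34.2% either way). The median difference of the 10 was 0.47, beside 0.087 over all genes tested.

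GOT1 was 26.8, 29.9 and 32.4 in empty vector replicates 3 to 5 and 43.4 and 44.7 in overexpression replicates 1 and 2, a difference of 0.56 (SE 0.12, limma adjusted p = 0.308). PCK2 was 11.5, 21.0 and 31.2 in empty vector and 43.4 and 48.7 in overexpression libraries (1.18, SE 0.44, limma adjusted p = 0.433). For both genes the groups were apart, and for PCK2 the empty vector libraries were also far from each other. The authors' deposited table gives p = 0.00613 for GOT1, p = 0.00136 for PCK2 and p = 0.0231 for ASNS, from a test that it does not describe.

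ASNS was 29.05, 56.6 and 110 in empty vector and 125 and 130 in overexpression libraries (1.15, SE 0.60, limma adjusted p = 0.541). CTH was 3.03, 9.45 and 17.7 in empty vector and 21.0 and 18.5 in overexpression libraries (1.16, SE 0.71, limma adjusted p = 0.580). In both genes empty vector replicate 5 lay close under the overexpression libraries and replicate 3 far below. PYCR1 was 68.5, 89.5 and 93.9 in empty vector and 99.6 and 113 in overexpression libraries (0.35, SE 0.18, limma adjusted p = 0.541).

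The other 5 overlapped. ASS1 was 3.70, 9.41 and 20.7 in empty vector and 14.4 and 18.3 in overexpression libraries (0.75, SE 0.71, limma adjusted p = 0.719). GPT2 was 12.7, 20.2 and 21.3 and then 21.2 and 25.6 (0.38, limma adjusted p = 0.626). ALDH18A1 (33.3, 33.3 and 30.9, then 33.1 and 33.1) and CBS (171, 193 and 165, then 183 and 187) were the flattest, with differences of 0.026 (SE 0.099) and 0.077 (SE 0.11) whose signs turned with quantile normalisation. ASL was listed at 16.4, 16.8 and 0 in empty vector replicates 3 to 5 and at 0 in both overexpression libraries, so no fold is given. In the overexpression table as a whole, 2127 genes (19.2%) are listed at 0 in at least 1 library, and 31 genes share the pattern of ASL, 10 of them at 10 or more where not 0. CS, the citrate synthase of every respiring cell, is listed there at 0 in 4 of 5 libraries, and CAD, which starts pyrimidine synthesis, in 5 of 5. A value of 0 in this table is therefore not read as a low level. Without empty vector replicate 5, ASL passed (limma adjusted p = 0.00264), a call that rests on those zeros, and no other enzyme did (GOT1 adjusted p = 0.0659).

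**Figure D3:**
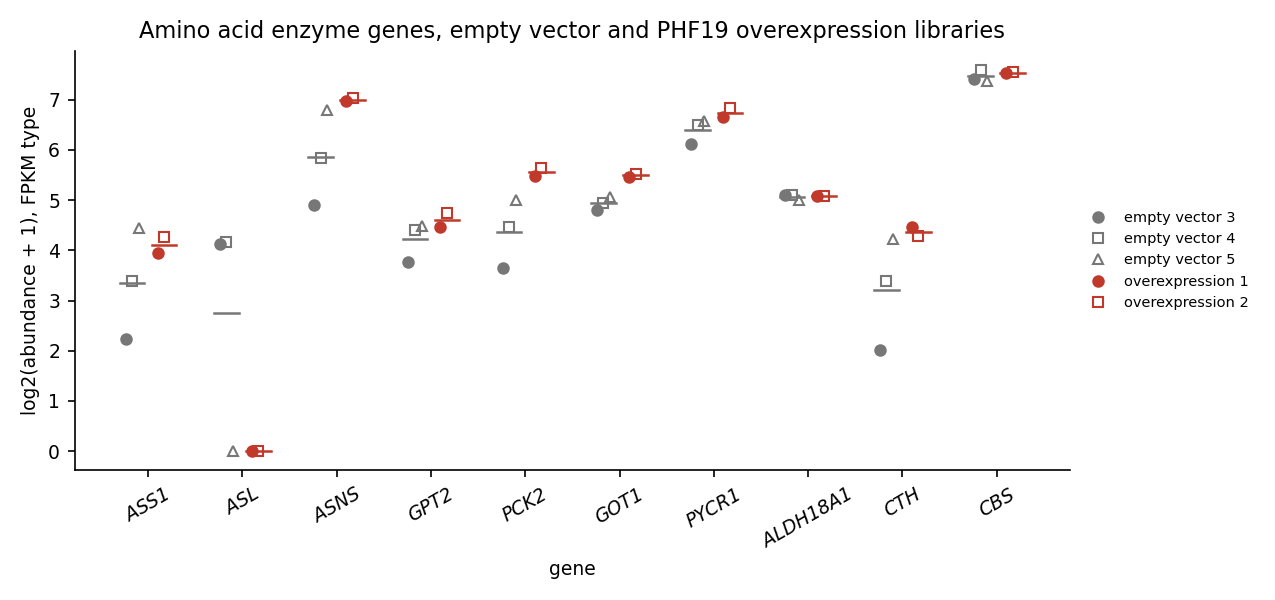
The 10 enzymes in each empty vector library (grey) and overexpression library (red) as log2(abundance + 1), with bars at the mean of these log2 values. Empty vector libraries are spread widely for ASNS (29.05 to 110) and CTH (3.03 to 17.7), and ASL is listed at 0 in 3 of 5 libraries.

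Among empty vector libraries the span was 2.22 for CTH, 2.21 for ASS1, 1.89 for ASNS, 1.37 for PCK2 and 0.71 for GPT2, with a median of 0.50 over all genes tested. A span as wide was seen for 10.1%, 10.1%, 11.4%, 15.1% and 34.6% of genes. Empty vector replicate 3 was the lowest for 7 of the 10 enzymes (33.7% of all genes), and replicate 5 the highest for 7 of 10 (42.7% of all genes).

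**Figure D4:**
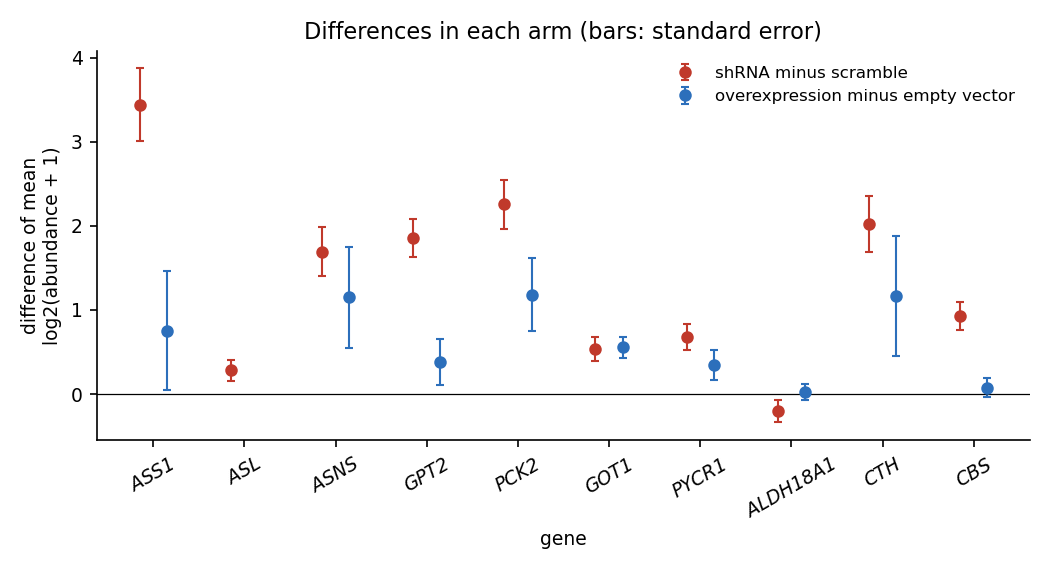
Difference of mean log2(abundance + 1) for each enzyme, shRNA minus scramble (red) and overexpression minus empty vector (blue), with standard errors; ASL is left out for overexpression because of values listed at 0. The red points for ASS1, PCK2, CTH, GPT2 and ASNS lie between 1.69 and 3.44, and ALDH18A1 lies near 0 in both arms.

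Other genes of the same pathways were listed by function, with earlier results of these data known, and were looked up in the knockdown table. The described enzymes, selected on this same contrast, were left out of these lists. What remains is shaped by that choice, so nothing is read from the counts and the median below. The 5 lists held 85 symbols, some of them 2 names of 1 gene (PYCRL and PYCR3, MUT and MMUT, SQRDL and SQOR). Of these symbols 67 were in the table and 58 were tested, of which 6 rose and 1 fell (12.1% called, where 5.51% of all genes were). Their median difference was 0.030, beside 0.034 for all genes tested. At an unadjusted p under 0.05 there were 20 of 58, against 24.1% of all genes. By list, those called included 1 of 13 for arginine and urea cycle genes, 2 of 11 for asparagine, aspartate and glutamate genes, 1 of 14 for anaplerotic and citric acid cycle genes and 2 of 14 for methionine and cysteine genes. With the replicate block 9 were higher and 3 lower. None of the 58 was called by limma without scramble replicate 1 or without scramble replicate 2, and 3, 3 and 4 were called without scramble replicate 3, shRNA replicate 2 and shRNA replicate 3. The number of all genes called also changed with the block and with each library left out, as given below, so nothing is read from these changes.

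GATM, which transfers the amidino group of arginine in the first step of creatine synthesis, rose from 6.38 ± 0.816 (SD, n = 3) to 12.5 ± 1.24 (n = 3), a difference of 0.87 (limma adjusted p = 0.0154). IDH2, the mitochondrial NADP-dependent isocitrate dehydrogenase, rose from 16.4 ± 2.45 to 32.6 ± 5.17 (0.95, adjusted p = 0.0152). AHCYL1, a relative of adenosylhomocysteinase that regulates calcium release, rose from 10.2, 9.82 and 11.7 in scramble to 26.0, 18.1 and 20.8 in shRNA libraries (0.96, limma adjusted p = 0.0147). For GATM, IDH2 and AHCYL1 the highest shRNA library was replicate 1, at 13.5, 38.6 and 26.0, as it was for AGA (11.1), described next. For CSAD (4.37) and GLUL (0.95), also described next, replicate 1 was the lowest, as for the 10 enzymes. Of all genes tested, 33.1% were highest and 50.9% lowest in that library, so no contrast between the lists is read from this.

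AGA, a lysosomal amidase that cleaves the bond between sugar and asparagine in glycoprotein breakdown, rose from a mean of 4.51 to 8.91 (0.83, SE 0.17, limma adjusted p = 0.0274). CSAD, which decarboxylates cysteine sulfinate on the way to taurine, rose from a mean of 2.65 to 4.91 (0.71, SE 0.18, limma adjusted p = 0.0475). Of the 6 fits that leave out 1 library AGA passed in 2 and CSAD in 1, and both were lost with quantile normalisation and with no filter, CSAD also with a pseudocount of 0.1. GLUL, glutamine synthetase, fell from 3.70 ± 0.952 to 1.62 ± 0.584 (-0.85, limma adjusted p = 0.0494), and it was not called in any of the 6 fits that leave out 1 library (adjusted p 0.0470 to 0.173 over all alternatives). In overexpression libraries 0 of 54 of these genes were called by limma (0.914% of all genes were) and 8 had an unadjusted p under 0.05, where 11.5% of all genes did.

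**Figure D5:**
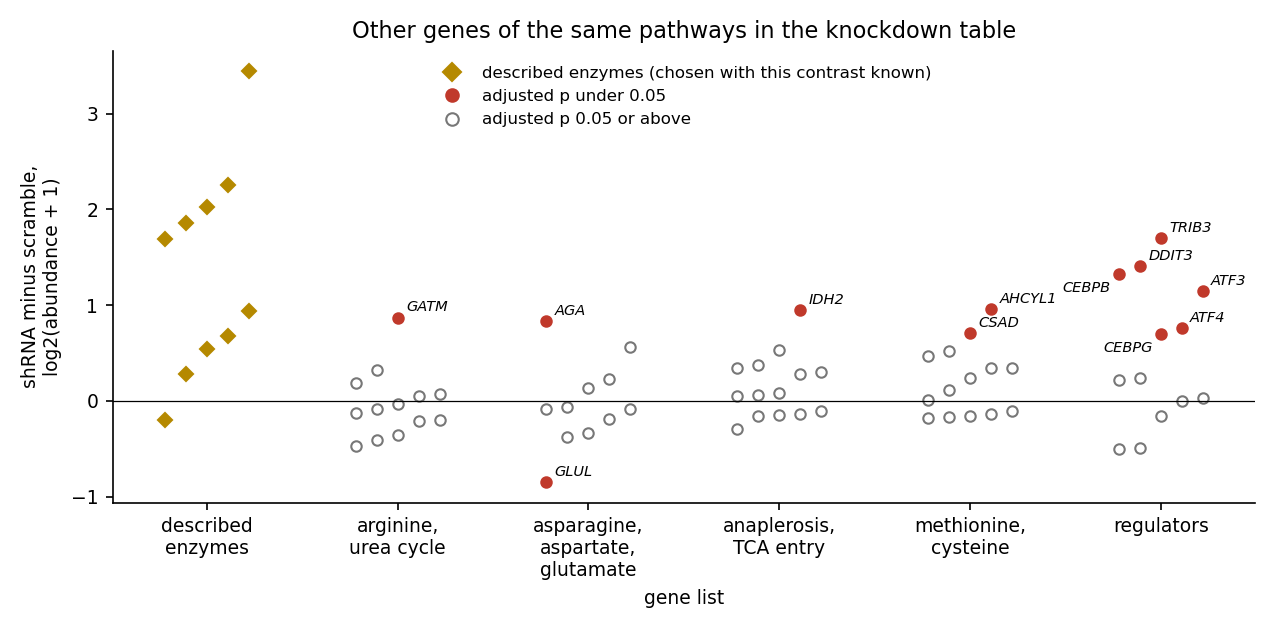
Difference between shRNA and scramble libraries (log2 scale) for the 10 enzymes (diamonds) and for the tested genes of 4 pathway lists and of the regulators, filled red where the adjusted p was under 0.05. Genes of these pathway lists lie between -0.85 and 0.96, below the 5 highest enzymes. The 10 enzymes were chosen with this contrast known, so nothing is read from that order.

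Of 14 listed regulators, 13 were tested after knockdown, and 6 rose and 0 fell (4.24% of all genes tested were called higher and 1.28% lower). The list was drawn up with earlier results of these data known, so nothing is read from this count. The replicate block called more of all genes tested. With it the 6 higher regulators passed and ATF5 was also called, lower (32.0, 32.1 and 34.0 in scramble, 17.5, 26.2 and 26.1 in shRNA libraries, limma adjusted p = 0.0980 without the block). ATF4 was 325, 309 and 276 in scramble and 459, 540 and 543 in shRNA libraries (0.76, SE 0.13, limma adjusted p = 0.0178), and of the 6 fits that leave out 1 library it passed only in that without shRNA replicate 1. DDIT3, a transcription factor downstream of ATF4, rose from 9.25 ± 1.70 (SD, n = 3) to 26.4 ± 5.85 (1.41, limma adjusted p = 0.00675) and passed without each library in turn. CEBPB, a dimer partner of ATF4, rose from 23.2 ± 4.88 to 60.0 ± 13.8 (1.33, limma adjusted p = 0.0113) and did not pass without scramble replicate 1 (0.0520). TRIB3, a pseudokinase that restrains ATF4, rose from 17.5 ± 4.11 to 61.3 ± 22.2 (1.70, limma adjusted p = 0.0175), and ATF3 from 5.23 ± 1.28 to 12.8 ± 2.65 (1.15, limma adjusted p = 0.0178). TRIB3 passed in 2 and ATF3 in 3 of the 6 fits without 1 library. MYC was 247 ± 14.5 and 177 ± 37.3 (-0.50, limma adjusted p = 0.103), and HIF1A 7.16 ± 1.54 and 7.14 ± 1.54 (limma adjusted p = 0.994).

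With PHF19 overexpressed 0 of 11 tested regulators were called by limma (0.914% of all genes were), and 5 had an unadjusted p under 0.05 (11.5% of all genes did). ATF3 was 3.72, 6.28 and 13.5 in empty vector and 23.9 and 23.3 in overexpression libraries (1.63, SE 0.52, limma adjusted p = 0.388). CEBPB was 6.04, 10.8 and 12.4 and then 19.9 and 20.8 (1.04, SE 0.32, limma adjusted p = 0.384), and TRIB3 9.47, 13.9 and 19.9 and then 29.2 and 35.8 (1.17, SE 0.33, limma adjusted p = 0.364). The groups of these 3 genes lay apart without passing over all genes. So did those of EIF2AK1, CEBPG and MYC, also higher, and of HIF1A, lower (23.1% of all genes tested lay apart higher and 11.1% lower). EIF2AK1 was 53.1, 54.3 and 82.9 in empty vector and 146 and 108 in overexpression libraries (1.01, SE 0.27, limma adjusted p = 0.344). The 5 with an unadjusted p under 0.05 were ATF3, CEBPB, TRIB3, EIF2AK1 and MYC. EIF2AK1 and CEBPG were named after their values were seen. ATF4 was 270, 348 and 400 in empty vector and 329 and 359 in overexpression libraries (0.037, SE 0.20, limma adjusted p = 0.952), so its groups overlapped. DDIT3 was listed at 69.9 in empty vector replicate 5 and at 0 in the other 4 libraries and was not tested. MYC was 187 ± 9.25 (n = 3) and 245 ± 10.8 (n = 2) with a limma adjusted p = 0.326, and HIF1A 8.14 ± 1.82 and 6.15 ± 0.0538 (limma adjusted p = 0.579).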

How the data were processed

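Abundances in 2 tables were deposited by the authors as values of FPKM type, already normalised. No unit stands in the headers, so FPKM, RPKM and TPM cannot be separated. Reads were aligned with TopHat to hg19, according to the submitters' processing notes. How genes were quantified, annotated and filtered is not stated. A p-value per gene was also deposited by the authors in both tables, with no test named. Among knockdown gene names, 24 symbols had become dates and were left unmatched.

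Groups came from the sample titles. Each arm was tested within its own table on log2(value + 1) with limma-trend and robust variances (limma 3.58.1, R 4.3.3), as two-sided tests. Genes were kept where 3 (knockdown) or 2 (overexpression) libraries reached a value of 1, p-values were adjusted by Benjamini-Hochberg over all of them, and the threshold was 0.05. The fit was tested on simulated data in which every gene had the same spread between libraries. The wide spans seen here were not simulated, so that check does not cover them. Depth is unknown, so no counting error was computed. The enzymes and lists were chosen with earlier results of these data known. Named were the 10 enzymes, their paralogs, PHF19, ATF4, DDIT3, MYC, HIF1A, up to 4 called genes per list, and the 5 nearest profiles. The result of 1 gene under this rule is not reported here, although counts over whole lists include it. Libraries of equal number deviated together in the knockdown arm (correlations 0.341, 0.270 and 0.273 across genes, -0.277 to 0.0936 for other pairs). The numbers were taken to pair them in the replicate block and in differences between libraries of equal number, from the data only. The main fit used no pairing, and the block rests on these same values. Promoter sequences came from RefSeq, in GRCh38.p14, and no hg19 coordinates are given.
Tables and plots used Python 3.11.15, pandas 2.3.3, numpy 2.4.6 and matplotlib 3.10.9. The alternatives tried were scaling by quantiles or by median ratios, plain limma variances, pseudocounts of 0.1 and 0.5, a filter at 5 or none, each library left out, the replicate block, and leaving out genes listed at 0.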

Additional observations from a re-analysis of the deposited data

How the results depend on the processing

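In the knockdown arm 601 genes passed (462 higher, 139 lower), 377 higher and 206 lower after quantile normalisation, 269 with no filter, 1295 with the replicate block, and 54 to 629 with 1 library left out. In the overexpression arm 94 passed, 36 with a filter at 5, 61 with a pseudocount of 0.1 and 107 to 350 with 1 library left out, the highest without empty vector replicate 5. Without genes listed at 0 limma called 0, and 1201 genes had an unadjusted p under 0.05. Of the 10 enzymes, 0 were called in overexpression under each alternative other than leaving out 1 library, where the count was 0 to 1. Pathway genes called after knockdown numbered 7, 3 with no filter, 12 with the replicate block and 0 to 6 with 1 library left out. In overexpression these were 0, and 0 to 3 with 1 library left out. Quantile normalisation moved the median of all genes in overexpression from 0.087 to -0.045. No paired analysis was possible for overexpression because its groups share no replicate number. The cause of these changes was not tested. With a library left out of a pair, the lone overexpression library is assumed to vary like the empty vector libraries. With the replicate block GOT1 joined the called enzymes, and no called enzyme was lost. Unknown depth limits what can be said of low genes such as CTH in scramble libraries.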

Other observations

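The genes in this section were chosen after their values were seen. In the arginine list, 3 genes of polyamine synthesis had lower means in shRNA libraries without passing over all genes. From scramble to shRNA libraries the mean of AMD1 went from 57.7 ± 0.555 to 43.4 ± 5.88 (SD, n = 3 each; limma adjusted p = 0.0865), SMS 82.95 ± 1.61 (SD, n = 3) and 60.3 ± 9.97 (n = 3; limma adjusted p = 0.0806), and SRM 373 ± 9.35 and 294 ± 43.2 (limma adjusted p = 0.161). ODC1, the first enzyme of the pathway, was 788 ± 27.3 and 742 ± 62.2 (limma adjusted p = 0.714), and its groups overlapped, as did those of AZIN1 (33.0 ± 1.24 and 34.9 ± 2.64) and AGMAT (9.84 ± 1.77 and 10.1 ± 0.719), whose means were slightly higher. AMD1 and SMS passed with the replicate block.

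The collagen prolyl hydroxylase genes separated empty vector replicate 5 from the other empty vector libraries. P4HA1 was 12.8, 23.2 and 102 in empty vector replicates 3 to 5 and 77.7 and 78.4 in overexpression libraries, and P4HA2 was 17.1, 16.2 and 36.3 and then 34.4 and 37.9. In the knockdown table P4HA1 was 7.35 to 10.3 in each library.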
